A study of Mus musculus with 24 samples.

Results

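The loss of NeuroD1 was compared between 2 tissues of the same mouse line, the retina and the pineal gland. For each gene the quantity compared was the change in the retina (cKO minus control) minus the change in the pineal gland (cKO minus control), on the log2 scale and averaged over day and night, and it is called the tissue difference here. A positive tissue difference means that the gene was changed upward more, or downward less, in the retina. All 24 arrays of the series entered the comparison. Of 18193 genes named by a probe set, each represented by its brightest probe set, 12866 had enough signal to be tested: 10763 of them were measured in both tissues, 930 in the retina only and 1173 in the pineal gland only.

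The cKO mice carried 2 floxed NeuroD1 alleles and 1 Crx-cre transgene (NeuroD1flox/flox::Crx-cre+/-), and the controls carried the same floxed alleles with no Cre (NeuroD1flox/flox::Crx-cre-/-), so the effect of Cre itself and that of the lost gene cannot be told apart. The Crx promoter is active in photoreceptors and pinealocytes. The groups, each with 3 pools of 6 organs, were retina cKO and retina control, and pineal gland cKO and pineal gland control, at ZT6 (6 h after lights on, day) and ZT20 (night, collected under dim red light). All mice were C57BL/6J, of both sexes, 2 months old and kept in 12 h of light and 12 h of dark. P-values therefore measure the spread between pools, and the part of the gene that Cre removes is unknown here.

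NeuroD1 is a basic helix-loop-helix transcription factor that binds E-box sequences and acts in neurons, islet cells and other endocrine cells. Photoreceptors and mammalian pinealocytes are sister cell types: both depend on the homeobox factors Otx2 and Crx, and pinealocytes keep part of the phototransduction machinery while making melatonin from serotonin. Retinas without NeuroD1 are known to lose photoreceptors over time. A damaged retina is known for a response of Müller glia, which raise Gfap and other reactive genes, and of microglia, which supply complement C1q.

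The tissues carried their known marker patterns in the 24 arrays. Signals below are normalised array intensities on a linear scale. Gnat1, the rod transducin, spanned 12888.8 to 13746.3 in the 12 retinal pools and 71.2 to 3675.4 in the 12 pineal pools, and Tph1, which starts melatonin synthesis, spanned 65.1 to 376.9 in the retina and 11198.3 to 12435.8 in the pineal gland. With so wide a pineal range, a change of Gnat1 could not be followed well there. Replicate pools correlated at 0.979 to 0.993, and no 2 arrays shared more than 0.494% of identical values. Lens crystallins, which come from a tissue beside the retina, varied widely in the retina of both genotypes (summed signal 30882 to 135709 in cKO and 38442 to 121409 in control pools), and 0 of the 16 lens genes tested passed in the tissue difference by limma, also at an unadjusted p under 0.05.

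4 promoters are shown because their genes stand for the 3 kinds of tissue difference described below: Opn1mw (the medium-wave cone opsin) and Frmpd1 (a FERM and PDZ domain scaffold protein), which were lower in the retinal knockout, Tal2 (a basic helix-loop-helix factor), which was higher there, and Gad1 (glutamate decarboxylase, which makes GABA), whose change was in the pineal gland. The sequences are from RefSeq on GRCm38.p6, each 250 bases before to 50 bases after the gene start, on the plus strand: Opn1mw chrX:74127216-74127515, Frmpd1 chr4:45184656-45184955, Tal2 chr4:53779451-53779750 and Gad1 chr2:70561879-70562178. Capitals mark matches to the E-box letters CAGATG or CAGCTG or to TAATCC, the core letters of Crx and Otx2 sites. GGATTA in the Gad1 promoter is TAATCC read from the other strand. Tal2 held none of the 3.
Opn1mw: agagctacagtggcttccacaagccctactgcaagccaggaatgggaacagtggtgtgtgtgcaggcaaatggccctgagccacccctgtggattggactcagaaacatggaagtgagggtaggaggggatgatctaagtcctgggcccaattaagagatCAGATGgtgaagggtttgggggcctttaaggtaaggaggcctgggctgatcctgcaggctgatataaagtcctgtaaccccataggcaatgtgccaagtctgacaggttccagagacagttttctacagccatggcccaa
Frmpd1: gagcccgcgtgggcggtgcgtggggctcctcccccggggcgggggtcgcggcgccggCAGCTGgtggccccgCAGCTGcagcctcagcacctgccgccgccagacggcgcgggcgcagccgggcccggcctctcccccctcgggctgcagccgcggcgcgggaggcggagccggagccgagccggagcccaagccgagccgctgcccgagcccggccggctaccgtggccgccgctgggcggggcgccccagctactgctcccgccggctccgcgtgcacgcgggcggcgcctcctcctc
Tal2: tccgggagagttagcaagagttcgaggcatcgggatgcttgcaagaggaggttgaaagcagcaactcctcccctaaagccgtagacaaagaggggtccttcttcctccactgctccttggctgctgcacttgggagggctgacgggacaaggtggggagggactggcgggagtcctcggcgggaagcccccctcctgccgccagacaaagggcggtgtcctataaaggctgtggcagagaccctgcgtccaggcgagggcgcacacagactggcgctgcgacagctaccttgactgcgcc
Gad1: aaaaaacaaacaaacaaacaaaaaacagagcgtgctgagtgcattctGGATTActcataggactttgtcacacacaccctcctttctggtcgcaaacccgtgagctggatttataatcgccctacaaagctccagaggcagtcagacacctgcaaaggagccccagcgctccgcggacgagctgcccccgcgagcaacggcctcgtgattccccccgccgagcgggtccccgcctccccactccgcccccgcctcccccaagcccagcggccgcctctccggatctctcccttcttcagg

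On either strand, CAGATG was found in 21.5% of the promoters of genes with a tissue difference of -1 or lower (65 of 83 such genes had a promoter in the table), in 17.2% for genes with one of 1 or higher (238 of 323), in 11.6% for all genes tested (10376 of 12866) and in 17.2% of all 27025 promoters of the table. CAGCTG was found in 18.5%, 21.8%, 15.3% and 16.1% of those same sets in the same order, and TAATCC in 9.2%, 6.3%, 5.8% and 7.2%. These shares describe letters in a window and were not tested.

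Neurod1 itself was reduced in the cKO pools of both tissues. In the retina its signal was 658.6, 581.0 and 275.3 at ZT6 and 332.3, 3671.9 and 3341.1 at ZT20 in cKO pools, against 6138.1 to 7509.5 in the 6 control pools. In the pineal gland it was 82.4, 36.3 and 33.5 at ZT6 and 28.4, 2069.4 and 885.3 at ZT20 in cKO pools, against 3112.8 to 5085.4 in control pools. No cKO pool reached a control pool in either tissue, and cKO pools 2 and 3 at ZT20 kept more signal than the other cKO pools in both. The retina kept 12.8% of the control level (log2 change -2.97, limma adjusted p = 0.0011) and the pineal gland 3.97% (log2 change -4.66, adjusted p = 6.3e-04). The tissue difference of Neurod1 was 1.68 ± 0.89 (SE), with an interval of -0.17 to 3.54, and did not pass (adjusted p = 0.22). Without pools 2 and 3 of cKO at ZT20 in both tissues it was 2.18 (adjusted p = 9.6e-05), and the counts that moved most without those 4 pools are given below.

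**Figure D1:**
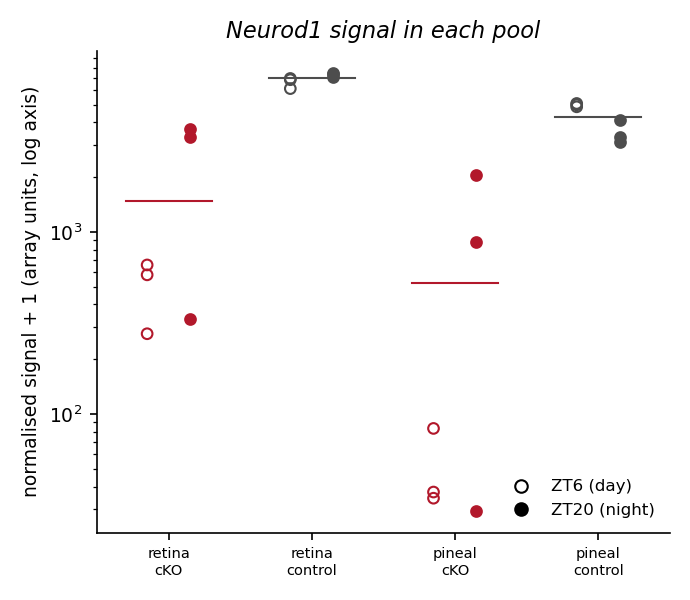
Neurod1 signal (normalised intensity plus 1, log axis) in each pool of 6 organs, for retina cKO, retina control, pineal cKO and pineal control. Open points are ZT6, filled points ZT20 and lines the mean of the 6 pools. All cKO pools lie below all control pools of their tissue, and 2 ZT20 cKO pools in each tissue lie above the other cKO pools.

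With the quantile scaling used here, more genes passed in the retina than in the pineal gland. In the retina 3858 genes passed the test of cKO against control averaged over both times (30.0% of 12866, with 2097 or 16.3% higher and 1761 or 13.7% lower in cKO), and in the pineal gland 129 passed (1.00%, with 63 or 0.490% higher and 66 or 0.513% lower). The order of these counts depended on the scaling: as deposited 4284 passed in the retina (4001 higher, 283 lower) and 90 in the pineal gland (4 higher, 86 lower), whereas with median centring 3600 passed in the retina (1461 higher, 2139 lower) and 4488 in the pineal gland (4359 higher, 129 lower), around a pineal all-gene median of 0.20. The tissue difference itself passed for 2051 genes (15.9%). Of these, 1114 (8.66%) were positive and 937 (7.28%) negative. Without cKO pools 2 and 3 of ZT20 in both tissues, 1673 passed (982 positive, 691 negative, with 1478 of them among the 2051), and the counts were 3542 in the retina and 20 in the pineal gland. The retinal change was the larger of the pair in 1020 genes that were higher and 826 that were lower in retinal cKO pools, and the pineal change was the larger in 111 genes that were higher and 94 that were lower in pineal cKO pools. In bulk tissue, fewer cells of a type and less RNA per cell cannot be told apart.

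Among the 2051 genes, the retinal change alone passed in 1809, the pineal change alone in 51, neither in 179, both with opposite signs in 11 and both with the same sign in 1. The median size of the retinal change was 0.48 in these genes against 0.15 in all tested genes, and that of the pineal change 0.11 against 0.08. A tissue difference of at least 1 in size (2-fold) was reached by 323 positive and 83 negative genes, and of at least 2 by 60 and 13. The split of positive and negative calls depended on the scaling: with the values as deposited 2725 genes passed, 2633 positive and 92 negative, around an all-gene median of 0.27, and with median centring 5159 passed, 719 positive and 4440 negative, around an all-gene median of -0.25. The quantile scaling used here puts that median at -0.02, and a direction below is relative to it.

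**Figure D2:**
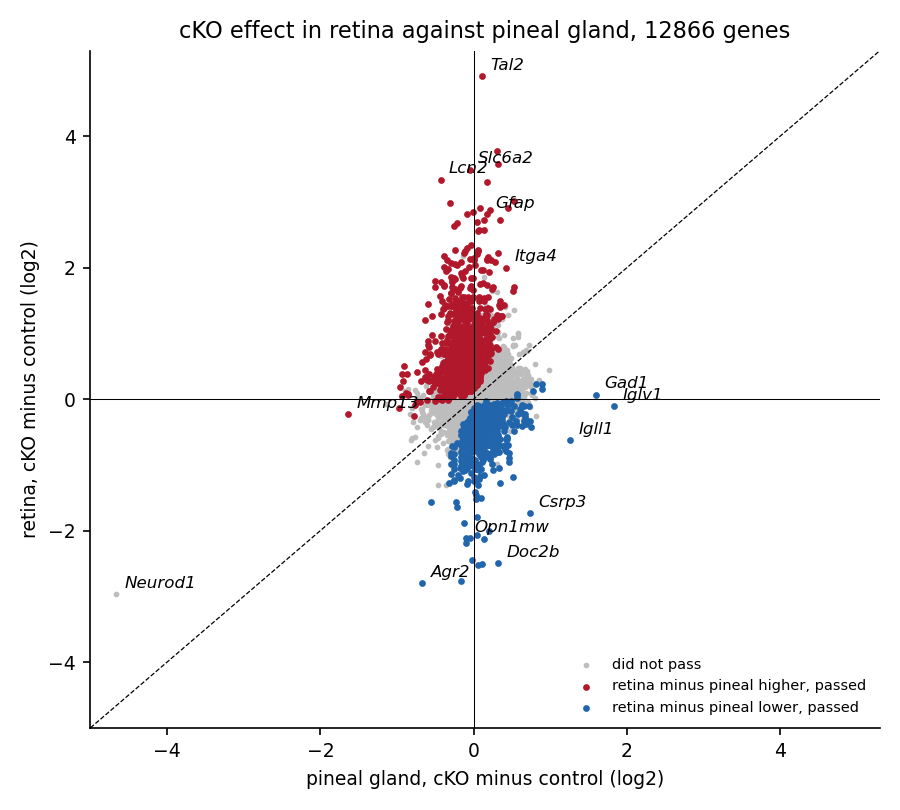
Log2 change of each tested gene (cKO minus control, averaged over both times) in the retina (vertical) against the pineal gland (horizontal). Red points passed with a positive tissue difference (1114 genes), blue with a negative one (937) and grey did not pass. The dashed line marks equal changes, and most coloured points spread along the retinal axis.

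The gene with the largest positive tissue difference on this scale was Tal2. Its signal was 393.6 to 1187.9 (median 839.4) in retinal cKO pools and 3.2 to 20.6 (median 9.2) in retinal control pools, against 738.6 to 1472.3 (median 1080.4) in pineal cKO and 897.9 to 1240.7 (median 961.3) in pineal control pools. The 2 retinal genotypes did not overlap, while the pineal genotypes did, and the retinal cKO signal of this probe set overlapped that of the pineal gland. The retinal control signal was below the array median in every pool, so the size of the change rests on the 16 added to each value before the logarithm. The retinal change was 4.91 (3.51 with 64 added), the pineal change 0.11 (adjusted p = 0.84) and the tissue difference 4.80 ± 0.26 (adjusted p = 4.6e-11), or 3.40 with 64 added. The mean over all probe sets of Tal2 gave 3.60.

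Slc6a2, the noradrenaline transporter, had 914.0 to 1061.3 in retinal cKO pools and 33.6 to 107.8 in control pools, against 20.6 to 54.1 in pineal cKO and 26.3 to 46.4 in pineal control pools. Its tissue difference was 3.54 ± 0.23, with 2.93 when 64 was added and 1.42 as the mean over its probe sets. Ces2b, a carboxylesterase, had 180.2 to 382.8 in retinal cKO pools and 0.7 to 15.9 in control pools, against medians of 57.2 in pineal cKO and 37.6 in pineal control pools. Both genes were low in the pineal gland and in the control retina, and their retinal genotypes did not overlap. Ces2b had a tissue difference of 3.24 ± 0.24, which was 1.96 with 64 in place of 16 added to each value. Agtr1a, the angiotensin II receptor, showed the same arrangement, with a tissue difference of 2.82 ± 0.44, or 1.85 with 64 added. These 3 genes exceeded the array median in retinal cKO pools only and so entered the test through the group in which they were high, and their values are given as a description. Of all tested genes 35 entered in this way through retinal cKO pools, and 25 of them are among the 2051. Another 20 entered through retinal control, 29 through pineal cKO and 10 through pineal control pools, with 9, 7 and 6 among the 2051. Genes above the median on any array of another group are not in these counts.

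The reactive genes of glia made up the group with the largest median. Of 25 tested genes of the reactive gliosis list, 24 passed as positive and 0 as negative, beside 8.66% and 7.28% of all genes. The median tissue difference was 2.09 against -0.02 over all genes, and Ednrb (0.50) did not pass. In the retina all 25 rose, with a median of 1.84, and in the pineal gland 0 passed by limma (3 at an unadjusted p under 0.05), with a median of 0.03. The summed signal of the list was 50514 to 74852 in retinal cKO and 17990 to 29003 in retinal control pools, against 40067 to 47739 in pineal cKO and 40098 to 50460 in pineal control pools. The retinal genotypes did not overlap on this sum and the pineal genotypes did.

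Gfap, the intermediate filament of astrocytes and reactive Müller glia, had 2096.0 to 3600.7 (median 2424.7) in retinal cKO and 218.5 to 532.6 (median 372.8) in retinal control pools, against 689.9 to 1088.2 (median 994.2) in pineal cKO and 640.8 to 926.0 (median 875.0) in pineal control pools. It rose 7.02-fold in the retina, changed 1.13-fold in the pineal gland without passing, and had a tissue difference of 2.63 ± 0.20 (adjusted p = 5.7e-09). Lcn2, a secreted carrier of iron-binding siderophores, had 1278.0 to 3256.2 in retinal cKO and 113.1 to 272.6 in retinal control pools, against 127.2 to 547.0 in pineal cKO and 103.9 to 431.2 in pineal control pools. Its tissue difference was 3.78 ± 0.41 (adjusted p = 7.6e-07), and that of Timp1, an inhibitor of metalloproteinases, was 3.30 ± 0.25 (adjusted p = 6.2e-09). Both rose in every retinal cKO pool relative to every retinal control pool.

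Further members with large tissue differences were Serpina3n (3.13 ± 0.36), a serine protease inhibitor, Steap4 (2.65 ± 0.19), a metalloreductase, Cebpd (2.51 ± 0.16), a transcription factor of the acute phase, Edn2 (2.46), the endothelin that injured photoreceptors are known to release, and Socs3 (2.21), the feedback inhibitor of Stat3 signalling. Stat3 itself had 1.26, Osmr, a receptor of its ligands, 2.09, and Lif, one such ligand, 1.45. All 8 passed. Il13ra2 (2.51 ± 0.24), a decoy receptor of interleukin-13, and Fgf2os (2.89 ± 0.21), the antisense transcript of Fgf2, were also among the 15 largest. Fgf2 (1.30) passed as well, and the files do not show how far probe sets of overlapping antisense genes can be separated.

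The Müller glia list, which holds genes of the resting cell as well, had 10 of 20 positive and 0 negative. Over all genes 8.66% were positive and 7.28% negative. The median of the list was 0.28, or -0.05 with median centring. Crym, a thyroid hormone binding protein, rose 2.22-fold in the retina (tissue difference 1.26 ± 0.17, adjusted p = 2.0e-05). Cp, the ferroxidase ceruloplasmin, had 1.21 ± 0.12 (adjusted p = 2.4e-07), and Apoe, the lipid carrier, 0.73 ± 0.10 (adjusted p = 1.0e-05). Of its channel and transporter genes, Kcnj10, a potassium channel (0.74), and Aqp4, a water channel (0.30), passed, and Slc1a3, a glutamate transporter (0.42), did not. Rlbp1, a retinaldehyde-binding protein (-0.05), Glul, glutamine synthetase (-0.08), and Lhx2, a homeobox factor (-0.16), did not pass either. With the values as deposited 12 were positive, and with median centring 5 were positive and 2 negative.

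Genes of microglia and macrophages came next. Of 19 tested, 17 passed with a positive and 0 with a negative tissue difference (median 1.49), beside 8.66% and 7.28% of all genes. Their summed signal was 9739 to 14413 in retinal cKO and 3578 to 5166 in retinal control pools, against 20825 to 26762 in pineal cKO and 27168 to 30987 in pineal control pools. The sum was thus higher in all retinal cKO pools and lower in all pineal cKO pools than in the controls, although 0 of the 19 passed by limma in the pineal gland (6 at an unadjusted p under 0.05, median -0.20). How far more such cells, or a changed state of the same cells, entered the retinal values was not tested.

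C1qb, a subunit of complement C1q, had 311.5 to 663.4 (median 571.1) in retinal cKO and 88.9 to 159.5 (median 115.4) in retinal control pools, against 510.3 to 720.6 (median 676.0) in pineal cKO and 748.3 to 1013.5 (median 808.7) in pineal control pools. Neither tissue's genotypes overlapped, and they were ordered in opposite ways. The retinal change of 2.01 passed (adjusted p = 6.8e-10), the pineal change of -0.39 did not (adjusted p = 0.2), and the tissue difference was 2.40 ± 0.21 (adjusted p = 2.8e-08). Tyrobp, the signalling adaptor of microglial receptors, had the same arrangement, with a retinal change of 1.79, a pineal change of -0.50 (adjusted p = 0.066) and a tissue difference of 2.29 ± 0.18 (adjusted p = 1.2e-08). The resting-state genes P2ry12 (1.06), Tmem119 (1.07) and Cx3cr1 (1.35) passed too, whereas Cd14 (0.08) and Lgals3 (0.61) did not.

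**Figure D3:**
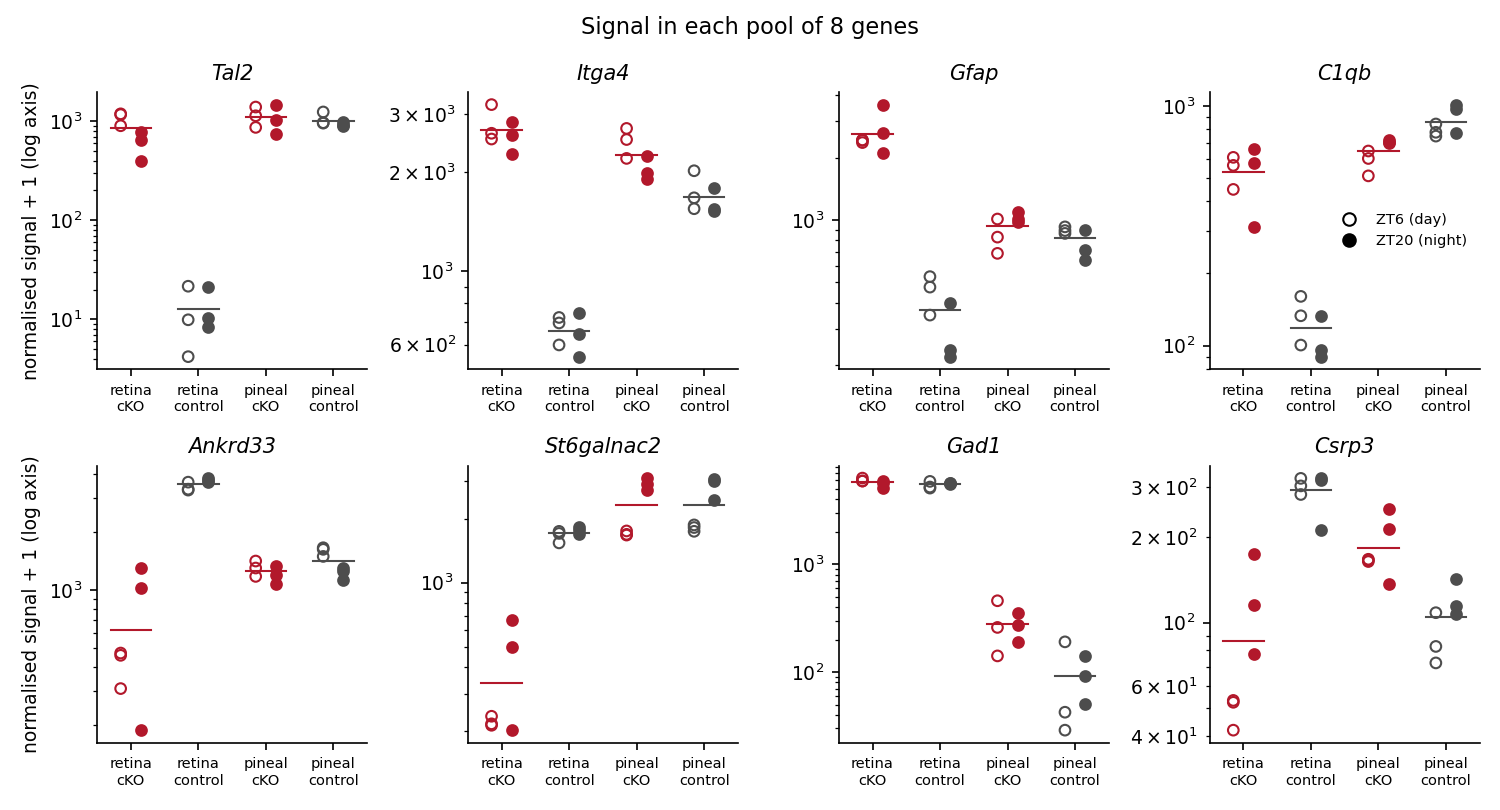
Normalised signal (plus 1, log axis) of Tal2, Itga4, Gfap and C1qb (top) and Ankrd33, St6galnac2, Gad1 and Csrp3 (bottom) in each pool, in the order retina cKO, retina control, pineal cKO and pineal control, with open points for ZT6, filled points for ZT20 and lines for the mean of 6 pools. The genotypes separate in the retina for every gene shown but Gad1, whose genotypes differ most in the pineal gland.

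The complement list had 9 positive and 1 negative of 12 (median 1.17), beside 8.66% and 7.28% of all genes. Beside C1q, the inhibitor Serping1 had a tissue difference of 2.89 ± 0.24 (adjusted p = 2.1e-08) and Cfi, the protease that inactivates C3b, 2.17 ± 0.24 (adjusted p = 9.7e-07). Serping1 was 1801.9 to 2979.8 in retinal cKO and 236.3 to 521.2 in retinal control pools, against 1963.2 to 2815.8 in pineal cKO and 2354.0 to 4111.8 in pineal control pools. The retinal cKO level of this probe set thus came to lie in the pineal range. Cd59a, which guards cells from the membrane attack complex, was the negative one (-0.49), with a retinal change of -0.48. The chemokine Ccl12, which attracts monocytes, had 2.88 ± 0.25 (adjusted p = 3.9e-08).

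Interferon-stimulated genes had 20 positive and 0 negative of 22 (median 1.14), and MHC class I antigen processing genes 12 positive and 0 negative of 15 (median 0.86). Over all genes 8.66% were positive and 7.28% negative. Ifit1, an antiviral RNA-binding protein, had 524.7 to 966.9 in retinal cKO and 116.2 to 218.8 in retinal control pools, against 376.0 to 611.6 in pineal cKO and 508.3 to 989.4 in pineal control pools (tissue difference 2.37 ± 0.26, adjusted p = 8.4e-07). Gbp2, an interferon-induced GTPase, had 2.26 ± 0.16, and Nlrc5, the activator of MHC class I genes, 2.20 ± 0.26. B2m, the light chain of MHC class I, rose 2.10-fold in the retina and changed 1.01-fold in the pineal gland without passing (tissue difference 1.08 ± 0.10, adjusted p = 6.4e-08). For both lists the pineal medians were below 0 (-0.22 and -0.10) and 0 members passed by limma there, with 8 and 4 at an unadjusted p under 0.05. The signal transducer Stat2 (-0.03), Irf7 (0.15) and the chaperones Calr (-0.11) and Pdia3 (0.14) did not pass.

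Immediate-early genes divided: 9 of 18 were positive and 0 negative (median 0.32), beside 8.66% and 7.28% of all genes. Egr2, a zinc-finger factor, had 137.7 to 327.7 in retinal cKO and 10.7 to 26.8 in retinal control pools, against 134.6 to 200.2 in pineal cKO and 132.0 to 235.4 in pineal control pools. Its tissue difference of 2.85 ± 0.21 (adjusted p = 3.4e-09) was 1.81 with 64 added. Atf3, a stress-induced factor, had 1.68 ± 0.19 (adjusted p = 1.5e-06), Egr3 1.49 ± 0.23 (adjusted p = 7.0e-05) and Egr1 1.08 ± 0.21 (adjusted p = 7.8e-04). The nuclear receptors Nr4a1 (-0.41) and Nr4a3 (0.04), and Dusp1 (-0.05), a phosphatase of MAP kinases, did not pass, so the early genes did not move as one group.

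Of 15 cell death genes tested, 6 were positive and 1 negative (median 0.21), beside 8.66% and 7.28% of all genes. Casp1, the inflammatory caspase, had the largest tissue difference at 2.31 ± 0.23 (adjusted p = 3.0e-07), with 130.8 to 262.4 in retinal cKO and 17.9 to 50.9 in retinal control pools, against 212.1 to 287.3 in pineal cKO and 251.5 to 430.9 in pineal control pools. The receptors Tnfrsf1a (1.85 ± 0.23, adjusted p = 5.6e-06) and Fas (1.08 ± 0.24, adjusted p = 0.0028) passed as well. The survival gene Bcl2 was the negative one (-0.44). Of the mitochondrial path, Bak1 (0.12), Bad (-0.12), Bid (0.28) and Casp9 (0.03) did not pass.

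**Figure D4:**
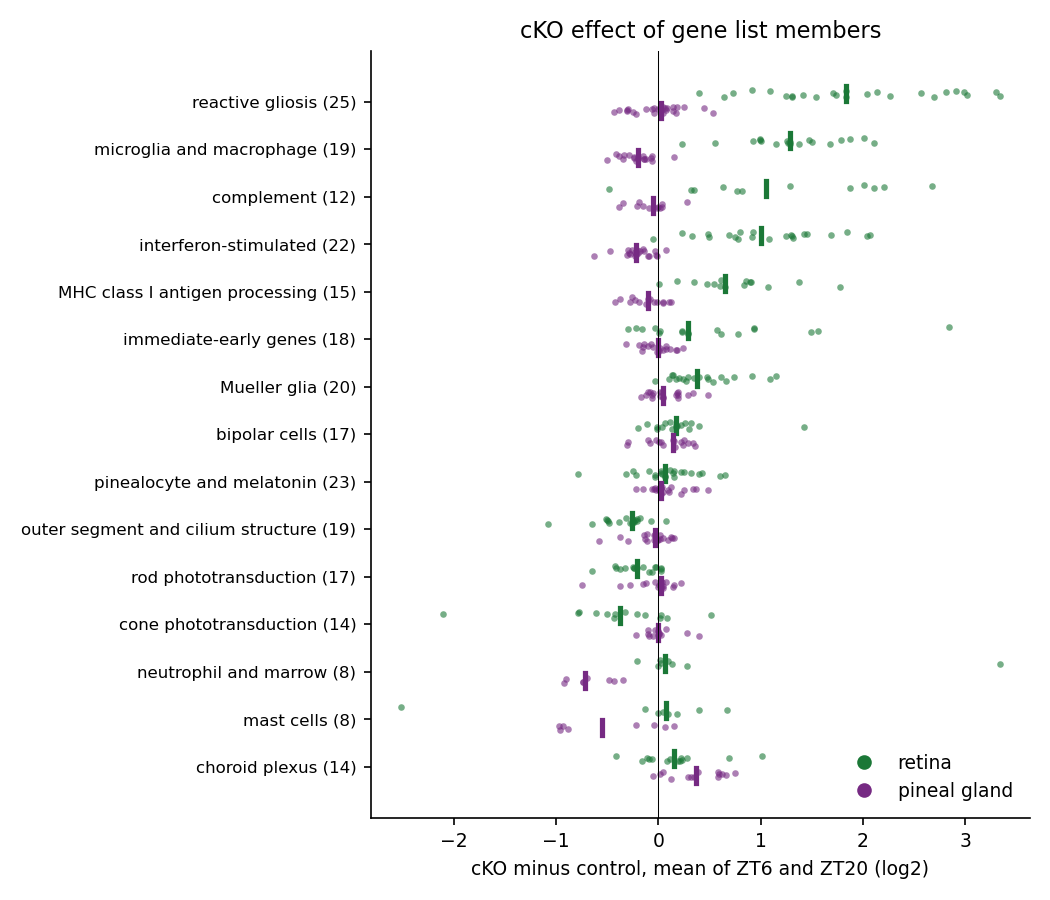
Log2 change (cKO minus control) of every tested member of 15 gene lists in the retina (green) above the pineal gland (purple). Bars mark medians and brackets the number tested. The immune and glial lists lie to the right in the retina and near 0 in the pineal gland, and the photoreceptor lists lie slightly left of 0 in the retina.

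On the negative side, the gene lowest by tissue difference was Doc2b, a calcium sensor of vesicle release, with 75.6 to 275.4 in retinal cKO and 709.9 to 1026.5 in retinal control pools, against 17.5 to 42.8 in pineal cKO and 7.6 to 30.3 in pineal control pools (-2.82 ± 0.25, adjusted p = 3.4e-08). Cldn23, a claudin of cell junctions, had -2.62 ± 0.27 (adjusted p = 4.3e-07), and Hdc, which makes histamine, -2.59 ± 0.29 (adjusted p = 1.1e-06). These genes fell 5.64-, 5.68- and 5.75-fold in the retina, with no overlap of its genotypes. Doc2b was dim in the pineal gland of both genotypes. Doc2b, Cldn23 and Hdc exceeded the array median on 6 retinal control arrays, but on 2, 1 and 0 retinal cKO arrays. In the pineal gland they did not reach the 3 arrays of the filter. They thus entered the test through the group in which they were high, and their values are given as a description.

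Some of the genes that fell in the retina were well expressed in the pineal gland and did not pass there. Ankrd33, known in mice as a repressor of Crx-driven transcription, had 187.6 to 1295.3 (median 465.3) in retinal cKO and 3291.0 to 3796.9 (median 3620.7) in retinal control pools, against 1074.8 to 1413.2 (median 1246.0) in pineal cKO and 1124.6 to 1655.9 (median 1397.7) in pineal control pools. The retinal genotypes were far apart and the pineal genotypes overlapped. The retina kept 14.7% of the control level and the pineal gland 89.1%, with a tissue difference of -2.60 ± 0.38 (adjusted p = 4.0e-05). St6galnac2, a sialyltransferase, had 201.4 to 664.0 in retinal cKO and 1538.0 to 1835.4 in retinal control pools, against 1674.1 to 3103.9 in pineal cKO and 1743.8 to 3078.9 in pineal control pools. The retina kept 18.3% and the pineal gland 98.4%, and the tissue difference of -2.43 ± 0.23 (adjusted p = 9.3e-08) was -1.40 as the mean over its probe sets.

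Frmpd1, whose promoter is shown above, had 331.1 to 1133.0 (median 478.6) in retinal cKO and 1497.5 to 2967.7 (median 1933.8) in retinal control pools, against 346.1 to 2028.0 (median 834.6) in pineal cKO and 352.3 to 1809.0 (median 783.0) in pineal control pools. It kept 28.9% in the retina and 103% in the pineal gland, with a tissue difference of -1.83 ± 0.25 (adjusted p = 1.5e-05). Akna (-2.20 ± 0.29), an AT-hook protein of centrosomes and gene regulation, Agr2 (-2.13 ± 0.25), a protein disulfide isomerase, and Knstrn (-2.06 ± 0.27), a spindle protein, fell in the retina as well. Agr2 was -1.26 with 64 added, and Knstrn, which exceeded the array median in retinal control pools only, -1.0 as the mean over its probe sets. Agr2 exceeded the array median on 6 retinal and 4 pineal control arrays and on 0 cKO arrays of either tissue. Both genes entered the test through the control pools, where they were high, and their values are given as a description. Erich6 (-2.12 ± 0.22), Dleu7 (-2.09 ± 0.27), Wdr63 (-1.71 ± 0.21) and Fam110a (-1.61 ± 0.21) complete the 15 largest negative tissue differences with separated pools, and Wdr63 was -1.04 with 64 added.

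The 30 genes with the largest tissue differences, 15 in each direction, were taken among genes whose 6 cKO pools did not overlap the 6 control pools in the tissue with the larger change. In the retina 1274 genes (9.90%) had such separation and in the pineal gland 111 (0.863%), and all 30 were separated in the retina. All 30 still passed, in the same direction, under the other settings in which they were tested and with each of the 24 arrays left out. They were chosen on these same arrays as large and separated, so these reruns describe stability and are no separate support. Slc6a2, Ces2b, Agtr1a, Knstrn, Doc2b, Cldn23 and Hdc among them met the signal filter through the pools of 1 genotype and tissue. Agr2 met it through the control pools of both tissues.

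In 4 photoreceptor lists some genes had a negative tissue difference, with small medians. Over all genes 7.28% were negative and 8.66% positive. In the retina itself 8 cone, 6 rod, 14 outer segment and 7 ribbon synapse genes passed as lower, and 1 cone gene as higher. Of all genes 13.7% were lower and 16.3% higher there. Of 14 cone phototransduction genes tested, 6 were negative and 1 positive (median -0.37). Of 17 rod phototransduction genes 6 were negative and 0 positive (median -0.19), of 19 outer segment and cilium genes 9 and 0 (median -0.20), and of 18 ribbon synapse genes 5 and 0 (median -0.15). 1 of those 5, the synaptic adhesion protein Elfn1 (-0.76), had its change in the pineal gland (0.60, against -0.15 in the retina, which did not pass). In the pineal gland Elfn1 alone of these 4 lists passed by limma, and 1 cone, 1 rod, 2 outer segment and 2 ribbon synapse genes had an unadjusted p under 0.05. With the values as deposited the rod list had 0 negative calls, the outer segment and ribbon synapse lists 1 each and the cone list 3, and the ribbon synapse median was 0.06. With median centring the rod, outer segment, ribbon synapse and cone lists had 9, 15, 16 and 7 negative calls. The ribbon synapse list had 3 without cKO pools 2 and 3 of ZT20.

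Opn1mw, the medium-wave cone opsin, stood apart from the other opsin. It had 350.5 to 1206.2 (median 542.5) in retinal cKO and 2236.5 to 3768.6 (median 2653.2) in retinal control pools, against 14.8 to 71.1 (median 27.3) in pineal cKO and 10.7 to 57.3 (median 38.1) in pineal control pools. The retina kept 23.1% of the control level, and the tissue difference was -2.01 ± 0.34 (adjusted p = 2.2e-04). Opn1sw, the short-wave opsin, had 3875.5 to 5371.0 in retinal cKO and 3676.9 to 4668.3 in retinal control pools, against 235.5 to 1382.0 in pineal cKO and 171.7 to 1063.0 in pineal control pools. Its genotypes overlapped in both tissues, and its tissue difference of -0.32 ± 0.27 did not pass (adjusted p = 0.48), but was -0.57 (adjusted p = 0.029) without pineal control ZT20 pool 2.

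Of the other cone genes, Gnat2, the cone transducin, had -0.45 ± 0.08 (adjusted p = 4.9e-04) and Arr3, the cone arrestin, -1.06 ± 0.35 (adjusted p = 0.045). The call of Arr3 ended under 7 of 14 other settings and with any of 17 of the 24 arrays left out. Gnb3, a transducin subunit that cones share with bipolar cells, was the positive one at 0.51 ± 0.06 (adjusted p = 2.3e-06), and 0.09 (adjusted p = 0.42) with median centring. Gnat2 was bright in both tissues, with 2940.8 to 3740.5 in retinal cKO and 4536.3 to 5373.3 in retinal control pools, against 4967.7 to 6184.8 in pineal cKO and 4531.5 to 6899.9 in pineal control pools. The genotypes were separate in the retina and overlapped in the pineal gland.

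Among rod and outer segment genes, Aipl1, a chaperone of phosphodiesterase, fell most in the retina, to 3357.8 to 6993.2 in cKO pools against 9081.3 to 10821.7 in control pools. In the pineal gland it was 5350.1 to 6992.6 in cKO and 5671.8 to 7494.2 in control pools, which overlapped. Its tissue difference was -0.97 ± 0.17 (adjusted p = 2.7e-04). Grk1, the photoreceptor opsin kinase (-0.80 ± 0.17), Prph2, the disc rim protein (-0.62 ± 0.11), and Tulp1, a trafficking protein (-0.55 ± 0.09), passed, and each lost its call with the values as deposited (-0.28, -0.38 and -0.34). Cacna1f, the calcium channel of the photoreceptor synapse (-0.68 ± 0.16), did so as well (-0.39). Sag, the rod arrestin, did not pass (0.00 in size, SE 0.04), and Gnat1 could not be placed (0.73 ± 1.00).

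Of 15 photoreceptor transcription factors tested, 7 were lower and 1 higher in the retinal knockout, beside 13.7% and 16.3% of all genes. The lower ones included Neurod1 itself, Mef2c (-0.56), Prdm1 (-0.51), Samd11 (-0.38), Rorb (-0.34), Mef2d (-0.26) and Crx (-0.25), and the higher one was Otx2 (0.11). Crx had 7381.3 to 8946.2 in retinal cKO and 8700.1 to 10054.8 in retinal control pools, against 8274.6 to 11182.8 in pineal cKO and 8199.0 to 11229.3 in pineal control pools, with a tissue difference of -0.28 ± 0.05 (adjusted p = 2.4e-04). Otx2 had a tissue difference of 0.07 ± 0.05 (adjusted p = 0.44). Nrl, the rod factor, could not be placed (0.12 ± 0.53, adjusted p = 0.92). In the tissue difference 4 of the 15 were negative and 0 positive (median -0.28), beside 7.28% and 8.66% of all genes. With the values as deposited 1 was negative, 1 positive and the median 0.11. Rorb, an orphan nuclear receptor of rod and cone development, was the most negative of the 4 at -0.59 ± 0.11 (adjusted p = 6.2e-04), with -0.36 (adjusted p = 0.11) as deposited.

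Genes of the pineal gland's own programme had calls in both directions. Of 23 pinealocyte and melatonin genes, 3 were positive and 2 negative, beside 15.9% of all genes, and the median was 0.03 (-0.30 with median centring). In the pineal gland 0 of them passed by limma (2 at an unadjusted p under 0.05). Since 1.00% of all genes passed there, this count does not set the list apart. Tph1, at 11198.3 to 12435.8 in pineal cKO and 11349.4 to 12405.7 in pineal control pools, had a pineal change of 0.01 (adjusted p = 0.99). Aanat, the night-time enzyme of melatonin synthesis, had 521.7 to 4768.6 in pineal cKO and 417.1 to 5265.4 in pineal control pools over day and night, a pineal change of 0.12 (adjusted p = 0.74) and a tissue difference of -0.06 ± 0.19 (adjusted p = 0.87). The positive calls of Gch1 (0.63 ± 0.17), which makes the cofactor of Tph1, and Chrnb4 (0.68 ± 0.18), a nicotinic receptor subunit, came from dim retinal signals. Both ended with median centring (0.33 and 0.44). Lhx4, a homeobox factor, was the other positive one (0.29 ± 0.08). It was not dim, with 2229.7 to 3635.7 over all retinal pools, and its retinal change was 0.32. Per1 (-0.18) and Dbp (0.14) did not pass, and of 21 clock genes 2 were positive and 1 negative (median -0.01), a share near the 15.9% of all genes. As deposited 4 clock genes were positive and 0 negative, and with median centring 0 and 8. Of 17 NeuroD-related basic helix-loop-helix genes tested, 2 were positive and 1 negative (median 0.00 in size), a share near the 15.9% of all genes. The counts were 4 and 1 without cKO pools 2 and 3 of ZT20. Id2, an inhibitor of such factors, was the most positive at 0.70 ± 0.12 (adjusted p = 3.5e-04). Insm1, a neuroendocrine zinc-finger factor, was the negative one at -0.64 ± 0.16 (adjusted p = 0.0067), and -0.33 (adjusted p = 0.18) as deposited.

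In a smaller set of genes the change lay in the pineal gland. Gad1 had 5135.4 to 6297.6 (median 5885.4) in retinal cKO and 5086.7 to 5871.3 (median 5627.6) in retinal control pools, against 140.2 to 457.5 (median 266.4) in pineal cKO and 27.9 to 189.6 (median 70.8) in pineal control pools. The retinal genotypes overlapped widely, and the pineal genotypes overlapped at the edge. Its fold was 1.05 in the retina, which did not pass, and it rose 3.03-fold in the pineal gland (adjusted p = 0.012), with a tissue difference of -1.53 ± 0.41 (adjusted p = 0.012). Without cKO pools 2 and 3 of ZT20 the tissue difference was -1.54 (adjusted p = 0.065). Gabrb1, a subunit of the GABA-A receptor, had 176.7 to 412.9 in pineal cKO and 133.4 to 173.4 in pineal control pools, which did not overlap, and rose 1.76-fold there (tissue difference -0.59 ± 0.14, adjusted p = 0.0049), but the tissue difference was -0.13 (adjusted p = 0.6) as deposited. Neither of these 2 genes passed in the retina. Of 13 GABA system genes these 2 were negative and 0 positive, a share near the 15.9% of all genes. In the pineal gland 3 of the 13 passed as higher, beside 0.490% of all genes. They were Gad1, Gabrb1 and Gabrr1 (0.59), and the other members, such as Gad2 (0.26), did not pass there.

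Some mast cell genes fell in the pineal knockout (4 of 8 tested, beside 0.513% of all genes) and were dim in the retina. Kit (-0.04), Gata2 (0.15), Hdc (0.06) and Hpgds (-0.22) did not pass in the pineal gland. Tpsb2, a mast cell tryptase, had 16.2 to 26.9 in retinal cKO and 13.0 to 24.9 in retinal control pools, against 203.5 to 309.7 in pineal cKO and 415.1 to 649.7 in pineal control pools. The pineal genotypes did not overlap. It fell to 51.3% in the pineal gland, with a tissue difference of 1.14 ± 0.17 (adjusted p = 4.6e-05). Mcpt4, a chymase, and Cpa3, a carboxypeptidase, kept 52.5% and 54.4% there, with tissue differences of 0.98 ± 0.21 (adjusted p = 0.0025) and 0.97 ± 0.23 (adjusted p = 0.0061). Neither passed with 1 in place of 16 added (adjusted p = 0.054 and 0.33). Of 8 mast cell genes tested, 5 were positive and 1 negative in the tissue difference, beside 8.66% and 7.28% of all genes. Hpgds was among the 5 with a retinal rise that passed (0.67), and Hdc was the negative one, with a retinal fall (-2.52). The summed signal of the list was 4005 to 5408 in pineal cKO and 4683 to 6064 in pineal control pools, which overlapped. The number of mast cells in the pools was not measured.

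Some genes of bone and osteoclasts were lower in the pineal knockout. Of 7 tested, 3 fell there and 0 rose (median -0.74), beside 0.513% and 0.490% of all genes. All 7 had an unadjusted p under 0.05 by limma. The 3 were Mmp13, a collagenase (-1.64), Ctsk, the cathepsin of osteoclasts (-0.74), and Sp7, an osteoblast transcription factor (-0.59). In the retina 2 of the 7 passed as lower, beside 13.7% of all genes. These were Col1a1 (-0.45) and Alpl (-0.39), which did not pass in the pineal gland (-0.24 and -0.25). The summed signal of the list was 8388 to 9863 in pineal cKO and 10093 to 13630 in pineal control pools, which did not overlap. In the tissue difference 2 were positive and 0 negative, beside 8.66% and 7.28% of all genes. Both calls ended without cKO pools 2 and 3 of ZT20 and with any of 12 of the 24 arrays left out singly. With median centring 2 were negative. The part of adhering bone in the pineal values was not tested.

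2 genes of neutrophils and B cells had a wide spread in 1 pineal genotype. Mmp9, a metalloproteinase of neutrophils and osteoclasts, had 198.1 to 327.4 in pineal cKO and 212.2 to 970.1 in pineal control pools (tissue difference 1.20 ± 0.29, adjusted p = 0.0063). Iglv1, an immunoglobulin light chain segment, had 35.0 to 1047.3 in pineal cKO and 27.0 to 54.1 in pineal control pools (-1.94 ± 0.38, adjusted p = 9.2e-04), and the call ended as the mean over its probe sets (-0.70, adjusted p = 0.076). The genotypes overlapped for both genes. The neutrophil and B cell lists had 2 and 1 positive and 0 and 2 negative members of 8 each, and 4 neutrophil genes were positive as deposited. Over all genes 8.66% were positive and 7.28% negative. The summed neutrophil signal was 2434 to 4613 in retinal cKO and 930 to 1340 in retinal control pools, which did not overlap. In the pineal gland it was 3121 to 9496 in cKO and 2250 to 14339 in control pools. Of the 8 neutrophil genes 1 passed in the retina, Lcn2 (3.34), which is also on the reactive gliosis list. S100a8 (0.13), S100a9 (0.09), Camp (0.02), Ngp (0.00), Chil3 (0.03), Mmp9 (0.28) and Ltf (-0.21) did not pass there.

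In the retina, some genes of the pigment epithelium and melanosome list and of connective tissue moved beside the glial and immune genes, not all in 1 direction. Of 16 pigment epithelium and melanosome genes, 8 rose and 1 fell in the retina (median 0.59), beside 16.3% and 13.7% of all genes. Those that rose included the melanosome genes Mlana (2.18) and Pmel (1.86), and the one that fell was the pigment epithelium gene Rpe65 (-0.59). Lrat (-0.40), Rgr (-0.31), Best1 (0.12), Rlbp1 (0.14) and Mitf (0.02) did not pass in the retina. The summed signal of the list was 31941 to 51136 in retinal cKO and 25443 to 38244 in retinal control pools, which overlapped. Only Krt18, a keratin, passed in the tissue difference (0.92 ± 0.09, adjusted p = 3.9e-07), and without retina control ZT6 pool 3 8 of the 16 did. Of 16 meningeal fibroblast genes, 4 were positive (median 0.75), beside 8.66% of all genes, and without that same pool 8 were. Fmod, a collagen-binding proteoglycan, had 2.01 ± 0.42 (adjusted p = 0.0017). The summed signal of the meningeal list was 4155 to 8936 in retinal cKO and 2981 to 6864 in retinal control pools, against 45407 to 55861 in pineal cKO and 49115 to 65989 in pineal control pools. The part of these tissues in the other retinal results was not tested.

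The lists of inner retinal neurons had few calls, beside 15.9% of all genes. Of 17 bipolar cell genes 1 was positive and 1 negative (median 0.07), of 14 amacrine and horizontal cell genes 0 and 1 (Gad1, through its pineal change), and of 14 ganglion cell genes 1 and 0 (median 0.11). Prkca, the marker of rod bipolar cells, had 4374.7 to 5431.2 in retinal cKO and 4560.5 to 5324.7 in retinal control pools, and a tissue difference of -0.16 ± 0.07 (adjusted p = 0.16). Without retina control ZT6 pool 3 the bipolar list had 5 calls, and without cKO pools 2 and 3 of ZT20 it had 1, while the single amacrine and ganglion calls ended. These counts followed the scaling: as deposited 6 bipolar and 5 ganglion genes were positive, and with median centring 6 bipolar and 3 amacrine genes were negative. Of 21 genes of mitochondrial respiration and 11 of ribosomal proteins 0 passed by limma at an adjusted p under 0.05 (1 of each list at an unadjusted p under 0.05), with medians of 0.00 in size and 0.02. Of 19 glycolysis genes 2 were negative and 0 positive (median -0.09), Hk2, the hexokinase of photoreceptors, being the lower one at -0.49 ± 0.10 (adjusted p = 9.6e-04). With median centring, which puts the all-gene median at -0.25, 18 mitochondrial, 9 ribosomal and 15 glycolysis genes passed as negative.

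The remaining lists had 1 to 4 calls each, beside 15.9% of all genes, or none. Endothelium and mural cells had 4 positive and 0 negative of 19 (median 0.37), with Vwf, a clotting factor of endothelium, at 0.71 ± 0.17 (adjusted p = 0.0056), and 9 calls without retina control ZT6 pool 3. Choroid plexus had 0 positive and 1 negative of 14 (median -0.26), the negative one being Kcne2, a potassium channel subunit, at -0.76 ± 0.19 (adjusted p = 0.0082). Neuroendocrine and islet genes had 1 positive and 2 negative of 16 (median -0.03), the positive one being Ptprn, a secretory granule protein, at 1.19 ± 0.14 (adjusted p = 1.9e-06). It rose 2.32-fold in the retina with no overlap of its genotypes. Myelin genes had 1 positive of 6, Cnp (0.72 ± 0.14, adjusted p = 9.1e-04), visual cycle genes 2 negative of 10, synapse genes 2 negative of 17 and heat shock and unfolded protein genes 2 negative of 18. The cAMP-responsive genes had 3 positive of 21, all 3 also immediate-early genes, and of 3 red cell genes 0 passed by limma, also at an unadjusted p under 0.05. The scaling moved most of these counts: as deposited 10 endothelial, 8 cAMP-responsive and 4 myelin genes were positive, and with median centring 12 synapse, 13 heat shock, 7 choroid plexus, 7 neuroendocrine and 5 visual cycle genes were negative. Without cKO pools 2 and 3 of ZT20 the myelin list had 3 calls, the pigment epithelium list 2, and the synapse, heat shock and glycolysis lists 1 each.

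Of the 129 genes that passed in the pineal gland, 89 did not pass in the retina, where 30.0% of all genes passed. The rest passed in both tissues, a share near that 30.0%. With the same sign 29 did, Neurod1 among them, and with opposite signs 11. Both counts were small and unstable: they were 3 and 2 without cKO pools 2 and 3 of ZT20, and 7 and 3 without pineal control ZT6 pool 1. Among those with the same sign, the changes of Tox, an HMG-box factor, were 0.74 in the retina and 0.70 in the pineal gland, and those of Arntl2, a partner of Clock, were -0.51 and -0.43. Their tissue differences were 0.04 ± 0.20, with an interval of -0.38 to 0.46, and -0.08 ± 0.12, with an interval of -0.33 to 0.17. The pineal call of each ended with any of 3 arrays left out.

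Itga4, the alpha-4 integrin, was the single gene that passed in both tissues with the same sign and also in the tissue difference. It had 2281.0 to 3212.7 (median 2616.0) in retinal cKO and 550.1 to 745.3 (median 671.5) in retinal control pools, against 1906.0 to 2719.5 (median 2224.4) in pineal cKO and 1522.4 to 2022.2 (median 1611.8) in pineal control pools. The retinal genotypes were separate, and the pineal genotypes overlapped. The rise was 3.99-fold in the retina and 1.34-fold in the pineal gland (adjusted p = 0.031), and the tissue difference was 1.58 ± 0.13 (adjusted p = 1.3e-08). The pineal call ended with any of 8 arrays left out.

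Csrp3, a LIM protein known from striated muscle, had the largest tissue difference of the genes with opposite signs. It had 40.9 to 173.9 (median 64.5) in retinal cKO and 210.8 to 321.1 (median 308.9) in retinal control pools, against 135.6 to 250.6 (median 165.5) in pineal cKO and 71.2 to 141.2 (median 106.7) in pineal control pools. It fell to 30.1% in the retina and rose to 166% in the pineal gland (adjusted p = 0.033). The tissue difference of -2.46 ± 0.23 (adjusted p = 7.2e-08) passed under every setting and left-out array run, whereas the pineal call ended with any of 9 arrays left out. F13a1, the A chain of coagulation factor XIII, which macrophages make, was 25.7 to 65.6 in retinal cKO and 12.3 to 48.5 in retinal control pools, against 708.5 to 1005.2 in pineal cKO and 1248.1 to 1687.8 in pineal control pools. It rose in the dim retina (0.56), fell in the pineal gland (-0.67, a call that ended with any of 13 arrays left out) and had a tissue difference of 1.23 ± 0.22 (adjusted p = 4.5e-04).

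The tissue difference had the same sign by day and by night in 9055 of all 12866 genes tested (70.4%), from arrays that the times do not share. At ZT6 782 genes passed (6.08%, with 489 or 3.80% positive and 293 or 2.28% negative), at ZT20 1015 (7.89%, with 646 or 5.02% positive and 369 or 2.87% negative), and 475 passed at both times. The change of the tissue difference from day to night passed for 0 genes by limma at an adjusted p under 0.05 (0.00%), with 512 at an unadjusted p under 0.05 and a median SE of 0.26. Much larger changes than this SE did not pass either, as those of Steap4 (1.54 ± 0.38) and Ces2b (1.82 ± 0.48, adjusted p = 0.9 for both) show, so 0 calls do not show that day and night were alike.

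By gene, Tal2 had 5.31 at ZT6 and 4.29 at ZT20, Gfap 2.49 and 2.77, Opn1mw -1.78 and -2.24, and Ankrd33 -2.73 and -2.47, and all 8 of these values passed. Steap4 had 1.88 and 3.42, and Ces2b 2.33 and 4.16, which also passed at each time. None of these 6 genes passed the test of the change from day to night. In the retina alone 2707 genes passed at ZT6 (21.0%, with 12.0% higher and 9.09% lower) and 1866 at ZT20 (14.5%, with 8.33% higher and 6.17% lower). In the pineal gland 162 passed at ZT6 (1.26%, with 0.684% higher and 0.575% lower) and 0 at ZT20 (0.00%) by limma, with 683 at an unadjusted p under 0.05 at ZT20, where 2 of the 3 cKO pools kept more Neurod1.

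**Figure D5:**
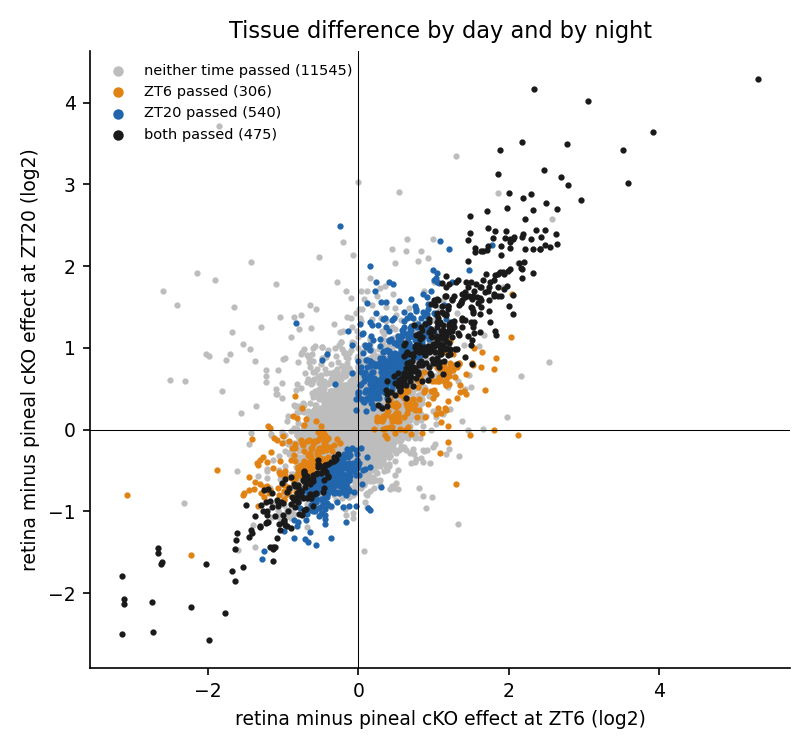
Tissue difference (log2) of each tested gene at ZT6 (horizontal) and ZT20 (vertical). Genes passed at neither time (11545), at ZT6 alone (306), at ZT20 alone (540) or at both (475).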

How the data were processed

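RNA of 24 pools was measured on Affymetrix Mouse 430 2.0 arrays after NuGEN Ovation amplification, per the labels' protocols. The deposited intensity values of 45101 probe sets are linear and came from GCOS, per the submitters' processing notes, with no detection calls used here. Each array's scale was the authors': array medians ran from 125.9 to 183.1 in retinal cKO, 107.8 to 137.7 in retinal control, 107.1 to 131.0 in pineal cKO and 130.0 to 158.8 in pineal control pools. The number of arrays limits the precision.

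Log2 values (deposited value plus 16) were quantile-normalised within each tissue over all non-control probe sets, which sets each tissue's overall shift to about 0. Signals printed are that value taken back to the linear scale. Of the probe sets, 34945 carried 1 gene symbol in the platform annotation, 932 several and 9160 none; 34741 were matched to RefSeq by gene identifier and 0 symbols changed. The brightest probe set stood for a gene. A gene was tested if it exceeded the array median on at least 3 of the 12 arrays of either tissue. Means of 8 groups were fitted to all 24 arrays with limma 3.58.1 in R 4.3.3 (eBayes with a variance trend), and p-values were adjusted by Benjamini-Hochberg over 12866 genes with a threshold of 0.05. Adjusted p-values in the text are from this limma fit unless an alternative is named. The steps were tested on simulated data.

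Retinal and pineal pools with the same number were checked as possible pairs: their deviations from the group means correlated at -0.27 to 0.28 across genes, so the numbers were not taken as pairs. The members and gene lists were chosen with earlier results of these data known, so lists are described by counts and medians and support nothing by themselves. Named genes were Neurod1, the 15 largest tissue differences each way with separated pools (predicted genes and sex-linked markers passed over), the 5 largest each way per time, up to 10 genes passing in both tissues by sign, up to 4 called members of each list, and a short list by name. List members printed without an error, and the promoters shown, were chosen after their values were seen. Asmt is not used here. Alternatives covered the scaling, the added value, the low-signal filter, the variance model, array weights, pool-number blocks, the probe-set rule and left-out arrays.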

Additional observations from a re-analysis of the deposited data

Results flagged for a closer look

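The change with loss of NeuroD1 differed between retina and pineal gland, by the test of the difference itself, for 2051 genes averaged over both times, for 782 at ZT6 and for 1015 at ZT20. Of the 11 genes whose changes passed in both tissues with opposite signs, the 10 named by rule were Csrp3 (tissue difference -2.46), Gbp8 (1.48), Cmbl (1.24), F13a1 (1.23), Insyn2a (1.15), Themis2 (0.88), Adam12 (0.71), Glb1l2 (-0.77), Zfp945 (0.75) and Insyn2b (-0.62), and the other was Limch1 (0.43), named after its values were seen. For Insyn2a the value was 0.33 (adjusted p = 0.18) as the mean over its probe sets, and for Glb1l2 and Insyn2b the values as deposited were -0.39 (adjusted p = 0.12) and -0.17 (adjusted p = 0.48). The other 7 of those 10 tissue differences passed under these settings.

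Probe sets that carry no single gene symbol were outside the comparisons. Of 10092 such probe sets 3901 were tested, and 494 passed in the tissue difference averaged over times by limma, 301 positive and 193 negative. The 2 largest tissue differences among them were 3.52 and 3.26 on the positive side and -2.84 and -2.70 on the negative side. Groups of 3 pools are too small for a test of single outlying pools, and none was run.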

How the results depend on the processing

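The 30 largest tissue differences kept their call and direction under every setting and left-out array in which they were tested, and 78 of the 125 named genes that passed did so. The 30 were chosen on the same arrays, so the reruns describe stability only. With the values as deposited 99 of the 125 still passed, and with median centring 112. The scaling moved the split of calls most: 96.6% of calls were positive as deposited (2725 genes, 1206 of them also among the 2051), 13.9% with median centring (5159 genes, 1628 shared) and 54.3% with quantile scaling; by time the deposited values gave 703 positive and 26 negative calls at ZT6 and 1104 and 33 at ZT20. Median centring gave 2160 calls at ZT6, 1880 at ZT20 and 4488 in the pineal gland. Pineal calls (129) were 199 with 64 added, 82 with no filter, 473 with array weights, 20 without cKO pools 2 and 3 of ZT20 and 26 without pineal pool 3 of ZT6. ZT20 calls (1015) were 1594 with array weights and 674 without those cKO pools, which also gave 1 call in the change from day to night; ZT6 calls (782) were 418 without pineal pool 3 of ZT6. Leaving out 1 array at a time gave 1636 (without retina cKO ZT20 pool 1) to 2393 (without retina control ZT6 pool 3) calls on average, 551 to 973 at ZT6, 600 to 1266 at ZT20, 0 to 1 in the change, 2995 to 4199 in the retina and 31 (without pineal control ZT6 pool 1) to 153 in the pineal gland. With pool number as a block 1955 genes passed (718 at ZT6, 929 at ZT20), and with same-numbered pools of both tissues as a block 1704 (589 and 789). Signs turned as follows. As deposited, the tissue difference was 0.11 for Prdm1 and 0.03 for Hspa1a, and the retinal change of Insyn2b was 0.04. With median centring, tissue differences were -0.32 for Otx2, -0.05 for Lhx4, -0.19 for Tcf4, -0.38 for Cox6c, -0.42 for Rpl19 and -0.45 for Rpl4, retinal changes were -0.04 for Otx2, -0.20 for Sag, -0.20 for Atp5a1, -0.18 for Cox6c, -0.20 for Rpl19 and -0.20 for Rpl4, and pineal changes were 0.19 for Gnat2, 0.19 for Tcf4, 0.24 for B2m, 0.20 for Cox6c, 0.25 for Pkm, 0.23 for Rpl19 and 0.24 for Rpl4. The cause was not tested.

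A gene dim in 1 tissue had little room to fall there, and no detection calls were used, so folds of dim genes are not bounds. The 3' to 5' signal of Actb (log2), a sign of RNA quality, was 1.11 to 1.50 in retinal cKO and 1.22 to 1.79 in retinal control pools, against 1.08 to 1.50 in pineal cKO and 1.07 to 1.30 in pineal control pools; its part in the results was not tested.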
